A study of Mus musculus with 10 samples.

Results

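The 10 genes described here encode enzymes of glycolysis: Hk2, Gpi1, Pfkl, Aldoa, Tpi1, Pgk1, Pgam1, Eno1, Pkm and Ldha. They were chosen by name, and all 10 were found among the 15269 listed transcripts, of which 14219 were coding. Ribosome footprints, the RNA fragments that a ribosome protects from RNase, were sequenced from the CGR8 line of mouse embryonic stem cells (strain 129), grown without feeder cells. The 4 conditions were an untreated control, DMDA-PatA (1 µM, 10 min), harringtonine (2 µg/ml, 10 min) and puromycin (0.2 mg/ml, 20 min), each with 2 libraries. A further 2 libraries held whole transcriptome reads of untreated cells. All cells got the same amount of DMSO, and cycloheximide was in every wash and lysis buffer. All libraries come from 1 cell line, so that the spread between replicates is the spread between biological replicates of this line.

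Glycolysis splits glucose into pyruvate and yields ATP without oxygen, and Ldha then turns pyruvate into lactate. Embryonic stem cells are known for a high rate of glycolysis. Hk2, Pfkl and Pkm catalyze the steps held to be irreversible, and the other enzymes work near equilibrium. The drugs act at different steps of translation. DMDA-PatA, an analog of pateamine A, targets eIF4A, the helicase of the cap-binding complex that loads the small ribosomal subunit. Harringtonine stops ribosomes that have just started, while ribosomes further along run off. Puromycin mimics an aminoacyl-tRNA and releases the growing chain.

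Depth on the coding transcripts was 9446317 and 11032085 reads in the control libraries, between 1011709 and 2745960 in the drug libraries, and 25287290 and 58759055 in the transcriptome libraries. Values are footprints normalized to a spike-in RNA, which keeps a fall that all mRNAs share. All 7 embryonic stem cell markers were present in the transcriptome, from 739 reads per kb of coding sequence for Tdgf1 to 10409 for Zfp42, against a median of 405 over coding transcripts. Of 7 fibroblast markers, Col1a1 was at 30848 reads per kb, Col1a2 at 6870, Col3a1 at 2314 and Pdgfrb at 961, all 4 above that median, while Thy1, Lum and Dcn were at 250.3, 27.0 and 14.4. Only untreated cells were sequenced as transcriptome, and the part of other cells in the results below was not tested.

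The sequence around each start codon is shown because the results compare reads before and after it. For Gpi1 and Pgam1 the start codon is that of GENCODE M21, at transcript positions 124 and 126, while the authors' 5' UTRs are 68 and 177 nt long, so that for these 2 the boundary used in counting reads is not the one shown. The capitals mark the start codon, and the sequences come from the GENCODE M21 transcripts (GRCm38).
Hk2 (chr6:82725025-82774454, minus strand): cgccgcaacaagATGatcgcc
Gpi1 (chr7:34201330-34230336, minus strand): gggtccctcgccATGgctgcg
Pfkl (chr10:77986947-78009807, minus strand): tccgctgccgccATGgctacc
Aldoa (chr7:126795234-126799254, minus strand): gccaccggcaccATGccccac
Tpi1 (chr6:124810586-124814296, minus strand): gtggagaggcagATGgagggg
Pgk1 (chrX:106187100-106203699, plus strand): ggtgttgccaaaATGtcgctt
Pgam1 (chr19:41911923-41918660, plus strand): ctgcccgtcgccATGgctgcc
Eno1 (chr4:150243486-150248873, plus strand): gagtggggggcaATGctaagc
Pkm (chr9:59656368-59679375, plus strand): acttcaggaaccATGccgaag
Ldha (chr7:46847131-46855626, plus strand): gggttcatcaagATGagtaag

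The coordinates are those of the listed transcript. At position -3, counted from the A of the start codon, 9 of the 10 had a purine, and Tpi1 did not. The listed open reading frame of Ldha starts 87 nt upstream of, and in frame with, the start codon that GENCODE gives for this transcript. The longest Ldha coding sequence in GENCODE, that of Ldha-210, is as long as this frame, at 1083 nt. The listed Eno1 transcript has a coding sequence of 1098 nt, shorter than the 1302 nt of the longest Eno1 transcript in GENCODE. For Aldoa the listed coding sequence has 1092 nt and the longest, that of Aldoa-202, has 1254 nt. Upstream ATGs were found in the 5' UTRs of Aldoa (1), Eno1 (5), Pkm (1) and Ldha (2), and none in the other members. The upstream ATG of Pkm stands at transcript position 3 and opens a frame of 7 codons that ends well before the start codon. It is shown here because Pkm carried the most 5' UTR footprints of all members under harringtonine, and the capitals mark its ATG. Reads were counted over the whole 5' UTR without positions, so none can be placed on this frame. The paper adds that bound proteins other than ribosomes, or strong RNA structure, can also protect RNA from RNase.
Pkm upstream frame: ATGtccttccgccacggaaggtag

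In untreated cells the coding sequences (CDS) of 7 members were densely covered by ribosomes. Per kb of CDS, the control libraries held 8954 ± 668 footprints on Aldoa (SD, n = 2), the aldolase that splits fructose bisphosphate. Next came Pkm, the pyruvate kinase, with 3158 ± 115, and Tpi1, the triosephosphate isomerase, with 3068 ± 272. Hk2, the hexokinase that traps glucose in the cell, had 2372 ± 292, and Ldha, the lactate dehydrogenase, had 2300 ± 61.6. Pfkl, a phosphofructokinase, had 2119 ± 46.5, and Gpi1, the glucose phosphate isomerase, had 1740 ± 160. The median over coding transcripts was 127. On this scale Pkm did not differ from Tpi1 beyond their spread, nor Hk2 from Ldha or Pfkl, while Aldoa stood above all others. Aldoa ranked 88 among 14219 coding transcripts by this density.

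The remaining 3 members had few or no reads on the CDS. Eno1, the enolase, had 62.4 ± 24.1 control footprints per kb, from 74 and 55 reads. Pgk1, the phosphoglycerate kinase that yields ATP, had 0 reads in each of the 8 footprint libraries and 5 and 7 reads in the transcriptome. Pgam1, the phosphoglycerate mutase, had 0 reads in all 10 libraries. A count of 0 allows up to 3 reads per library by counting error.

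The authors left out reads that match the genome more than once, and these members have near-identical copies elsewhere. Of the windows of 30 nt on the CDS of Pgk1, 0 of 1222 occurred once in the genome within an exon, and of those on Pgam1, 0 of 733. The whole CDS of Pgk1 recurs in a processed pseudogene on chromosome 12, Pgk1-rs7, and that of Pgam1 in Pgam1-ps2 on chromosome 7. The share of unique windows was 11.0% for Eno1, 20.5% for Pkm, 33.0% for Ldha, 35.0% for Gpi1, 38.0% for Aldoa and 52.1% for Tpi1. It reached 73.6% for Pfkl and 81.9% for Hk2, which had no exact copy of any window elsewhere. Windows across an exon junction stayed in the total and counted as not unique. They were between 11.9% of the windows for Pgam1 and 30.0% for Gpi1. For Hk2 (18.1%) and Pfkl (26.4%) they were all the windows that were not unique. Thus the footprint numbers count different shares of each CDS, and the zeros of Pgk1 and Pgam1 cannot be read as levels of translation. Per 1000 unique windows, the mean control footprints were 24201 for Aldoa, 15723 for Pkm, 7158 for Ldha, 6089 for Tpi1, 5058 for Gpi1, 2927 for Hk2, 2914 for Pfkl and 581 for Eno1. On this scale Pkm lay above Tpi1 and Ldha above Hk2, while Aldoa stayed highest and Eno1 lowest of the 8. A window counted as unique had no second exact match, so this order holds for exact matches only. With up to 2 mismatches allowed, the unique share was 0% for Pkm, 1.5% for Aldoa, 3.0% for Eno1 and 3.2% for Ldha. It was then 12.8% for Gpi1, 20.0% for Tpi1, 71.7% for Pfkl and 78.6% for Hk2. Gapdh, the glycolytic enzyme between Tpi1 and Pgk1, has 3.0% unique windows and did not pass the filter for the footprint tests.

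**Figure D1:**
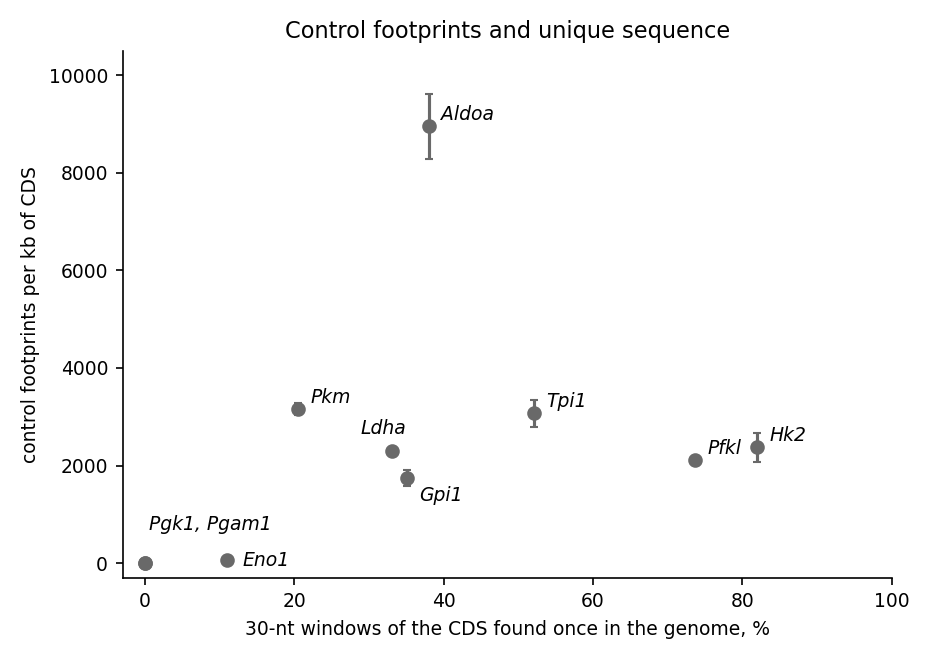
Control footprints per kb of CDS (vertical axis, mean and SD of 2 libraries) against the share of windows of 30 nt of the CDS that occur once in the genome (horizontal axis, %) for the 10 glycolytic enzymes. Windows across an exon junction count as not unique. Pgk1 and Pgam1 lie at 0 on both axes, Eno1 at 11.0% and 62.4 footprints per kb, and Aldoa highest at 8954 footprints per kb.

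In the transcriptome Aldoa was again highest and Eno1 lowest of the 8, while Pfkl stood higher and Tpi1 and Ldha lower in the order than by footprints. Per kb of CDS there were 4184 ± 577 transcriptome reads on Aldoa, 2570 ± 350 on Pfkl, 2343 ± 301 on Pkm, 2153 ± 297 on Hk2, 2072 ± 377 on Tpi1, 1732 ± 237 on Gpi1, 1530 ± 232 on Ldha and 88.2 ± 0.261 on Eno1 (SD, n = 2). From Pfkl to Ldha no neighbours in this order differed beyond their spread, though both libraries gave the same order.

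Footprints per transcriptome read were above the average of coding sequences for each of the 8 members that could be tested. The ratio was scaled so that 1 is the average over all coding reads. It was 4.92 and 5.77 for Aldoa in the libraries of replicate 1 and 2. For Ldha it was 3.31 and 4.25, for Tpi1 3.34 and 4.09, and for Pkm 2.88 and 3.91. Lower ratios were found for Hk2 (2.61 and 2.86), Gpi1 (2.34 and 2.67), Pfkl (1.83 and 2.31) and Eno1 (2.15 and 1.33). All replicates lay above 1.

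With edgeR's quasi-likelihood test and Benjamini-Hochberg adjustment over 14017 transcripts, the ratio was higher than average for all 8. Among all tested transcripts, 29.8% were called higher and 40.9% lower. The log2 ratio was 2.41 ± 0.10 for Aldoa (SE, adjusted p = 3.4e-10), and 98.9% of the coding transcripts tested lay below it. It was 0.77 ± 0.24 for Eno1 (adjusted p = 0.0104), the lowest of the 8. The call for Eno1 was lost without control replicate 1 (0.43, adjusted p = 0.188) or transcriptome replicate 2 (0.80, adjusted p = 0.0544). The median was 1.60 over these 8 and -0.19 over all coding transcripts tested. Reads that match several places were dropped from both kinds of library, and the part of this in the ratio was not tested.

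Each drug lowered the CDS footprints of each of the 8 members. Hk2 fell from 7093 and 5956 normalized footprints in the control libraries to 106 and 117 under DMDA-PatA, 446 and 227 under harringtonine, and 920 and 714 under puromycin. The groups did not overlap, and DMDA-PatA left the fewest footprints. Gpi1 fell from 3103 and 2724 to 129 and 261 under DMDA-PatA, 450 and 330 under harringtonine, and 571 and 532 under puromycin. Pfkl fell from 5036 and 4882 to 205 and 356, 842 and 652, and 451 and 390, in the same order of drugs. Here the puromycin libraries lay below those of harringtonine.

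Aldoa kept the most footprints with harringtonine and puromycin. It fell from 10293 and 9262 to 191 and 357 with DMDA-PatA, but to 3096 and 1786 with harringtonine and to 2738 and 2298 with puromycin, the last 2 overlapping. Tpi1 fell from 2925 and 2580 to 175 and 239 under DMDA-PatA, 481 and 219 under harringtonine, and 443 and 346 under puromycin. The harringtonine libraries overlapped both others, while both DMDA-PatA libraries lay below both puromycin libraries (log2 difference of -0.93 ± 0.45, adjusted p = 0.0570 by edgeR).

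Eno1 fell from 87.2 and 49.9 to 6.31 and 4.87 under DMDA-PatA, 8.12 and 3.50 under harringtonine, and 8.27 and 4.97 under puromycin. These are between 4 and 10 reads per drug library, too few to rank the drugs. Pkm fell from 4902 and 5161 to 159 and 298 under DMDA-PatA, 336 and 241 under harringtonine, and 527 and 726 under puromycin. The first 2 drugs overlapped, and puromycin lay above both.

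Ldha was the one member with its lowest footprints under harringtonine. It fell from 2538 and 2444 to 37.5 and 25.2 with this drug, to 73.2 and 110 with DMDA-PatA and to 101 and 78.3 with puromycin. Both harringtonine libraries lay below all libraries of the other drugs, with 37 and 36 reads.

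**Figure D2:**
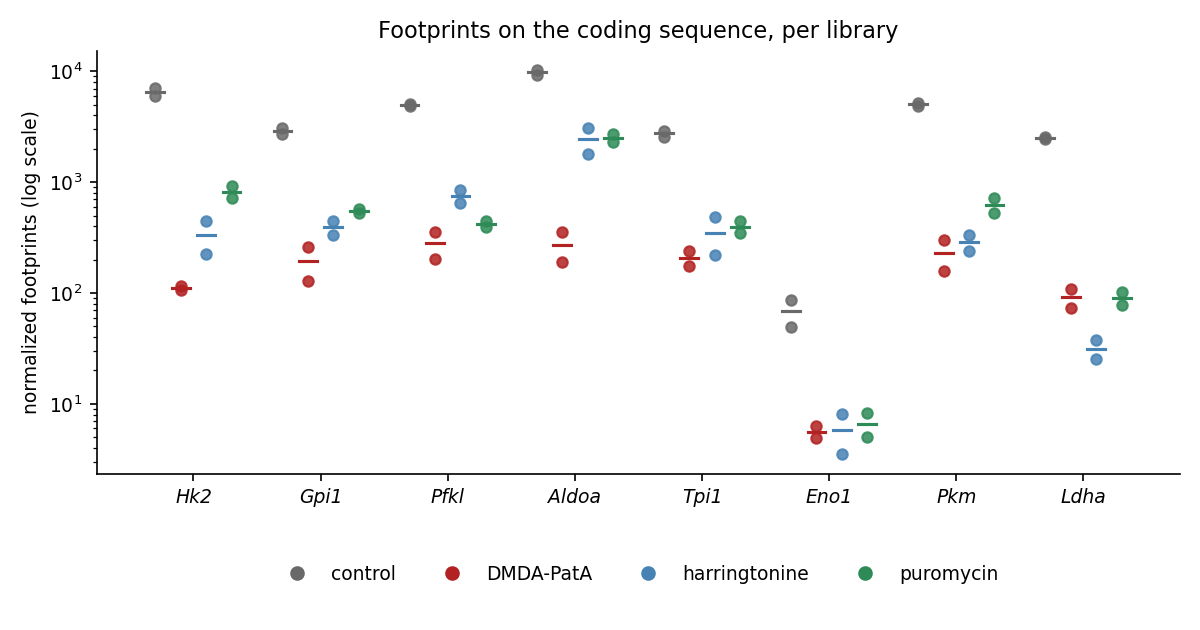
Normalized footprints on the CDS (log scale) of the 8 members with reads, for control, DMDA-PatA, harringtonine and puromycin. Each point is 1 library and each bar the mean of 2, and each drug library lies below both control libraries of the same gene; Pgk1 and Pgam1 had 0 footprints and are not drawn.

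DMDA-PatA lowered the CDS footprints of 8 of 8 members tested, and of 99.3% of all 12499 transcripts tested. Harringtonine also lowered 8 of 8, against 92.9% of all, and puromycin 8 of 8, against 90.1% of all. The spike-in was added per mass of RNA, so the values are footprints per mass of RNA and not per cell. No transcriptome of treated cells was analysed. With DMDA-PatA the log2 change was -5.87 ± 0.55 for Hk2 (SE, adjusted p = 5.57e-25) and -5.16 ± 0.54 for Aldoa (adjusted p = 8.07e-21). It was between -4.77 for Ldha and -3.56 for Eno1 for the others. The median was -4.30 over the 8 members and -4.33 over the 12093 coding transcripts tested.

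With harringtonine the log2 change ranged from -6.32 ± 0.56 for Ldha (adjusted p = 1.55e-26) to -2.0 ± 0.47 for Aldoa (adjusted p = 2.69e-05). Hk2 changed by -4.28 and Pkm by -4.13. The median was -3.29 over the members and -2.99 over coding transcripts. Only 0.645% of coding transcripts tested fell further than Ldha. With puromycin it ranged from -4.80 ± 0.52 for Ldha (adjusted p = 3.23e-18) to -1.96 ± 0.47 for Aldoa (adjusted p = 4.91e-05), with medians of -3.0 and -2.5. Here 2.23% of coding transcripts fell further than Ldha.

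Since nearly all mRNAs lost footprints, the members were also compared with the typical coding sequence, by TMM normalization of the same reads. On this scale the median of coding transcripts moved to -0.14 for harringtonine, -0.06 for puromycin and -0.13 for DMDA-PatA, and the changes below are relative to the typical coding sequence, not absolute. The members then went different ways.

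With DMDA-PatA, 3 of 8 members fell more than typical, where 23.6% of all transcripts tested did, and 1 fell less, against 18.8%. Hk2 lay at -1.61 ± 0.21 (log2, SE, adjusted p = 4.55e-06), Aldoa at -0.97 ± 0.20 (adjusted p = 5.20e-04) and Ldha at -0.55 ± 0.18 (adjusted p = 0.0202). Tpi1 lay at 0.50 ± 0.19 (adjusted p = 0.0418). Without any 1 of the 4 libraries compared the calls for Ldha and Tpi1 were lost, with changes between -0.60 and -0.50 for Ldha and between 0.43 and 0.57 for Tpi1. Gpi1 (0.28), Pfkl (0.05), Eno1 (0.69) and Pkm (-0.28) were not called.

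With harringtonine, 3 of 8 fell more than typical, against 30% of all, and 1 fell less, against 26.6%. Ldha lay at -3.45 ± 0.22 (adjusted p = 2.43e-10), Hk2 at -1.46 ± 0.20 (adjusted p = 3.58e-06) and Pkm at -1.25 ± 0.20 (adjusted p = 2.51e-05). Aldoa lay at 0.84 ± 0.19 (adjusted p = 9.07e-04), the opposite side from its value with DMDA-PatA. Pfkl was at 0.16, Gpi1 at -0.01, Tpi1 at -0.18 and Eno1 at -0.72, none of them called.

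With puromycin, 4 of 8 fell more than typical, against 24.9% of all, and 1 fell less, against 24.3%. Ldha lay at -2.37 ± 0.20 (adjusted p = 2.50e-08) and Pfkl at -1.11 ± 0.20 (adjusted p = 1.01e-04). Pkm at -0.55 ± 0.20 (adjusted p = 0.0264), Hk2 at -0.54 ± 0.20 (adjusted p = 0.0270) and, on the other side, Aldoa at 0.50 ± 0.19 (adjusted p = 0.0371) passed the threshold by less. Each of these 3 calls was lost without at least 2 of the 4 libraries, with changes between -0.67 and -0.35 for Hk2, between -0.79 and -0.28 for Pkm and between 0.43 and 0.64 for Aldoa. Gpi1 was at 0.05, Tpi1 at -0.35 and Eno1 at -0.97, none of them called. The 3 drugs share the control libraries.

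**Figure D3:**
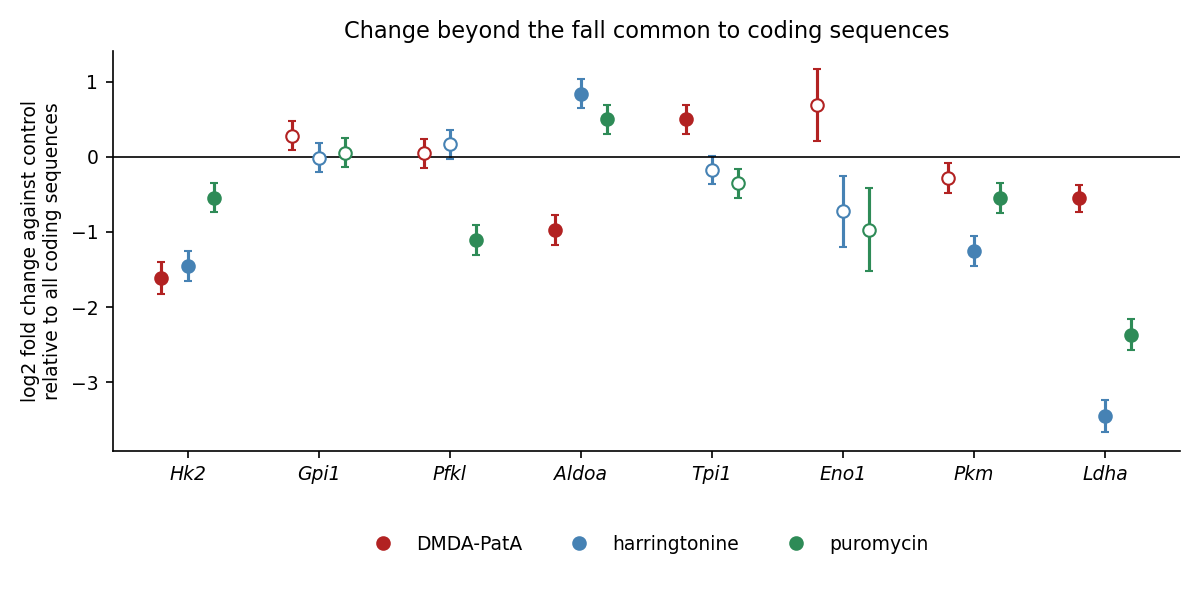
Log2 change of CDS footprints against control relative to all coding sequences (vertical axis, edgeR with TMM, bars are SE) for 8 members and 3 drugs. Filled points passed the adjusted p of 0.05 and open points did not; Ldha lies lowest at -3.45 with harringtonine, and Aldoa lies below 0 with DMDA-PatA and above 0 with the other 2 drugs.

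The unique windows of Ldha were not confined to a stretch of its CDS. Of its 348 unique windows, 213 lay downstream of the midpoint, and 37.8% of the windows that start in its first 90 nt were unique, against 67.8% for Hk2 and Pfkl and 100% for Tpi1. For Ldha these 90 nt include the 87 nt upstream of the GENCODE start codon. The part of the unique windows in the Ldha values was not tested.

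Doses and incubation times differ between the drugs, so the contrasts between drugs compare these treatments as they were given. DMDA-PatA left fewer CDS footprints than harringtonine on 4 members, where 52.8% of all transcripts tested had fewer, and more on 1, where 0.432% had more. The member with more was Ldha, at a log2 difference of 1.55 ± 0.49 (adjusted p = 0.00416). The others were Aldoa (-3.16 ± 0.49, adjusted p = 5.13e-09), Hk2 (-1.59 ± 0.47, adjusted p = 0.00219), Pfkl (-1.42 ± 0.46, adjusted p = 0.00545) and Gpi1 (-1.0 ± 0.45, adjusted p = 0.0489). Without replicate 1 of DMDA-PatA, the calls for Gpi1 (-0.58) and Pfkl (-1.07) were lost, and that for Gpi1 also without harringtonine replicate 1 (-0.76, adjusted p = 0.111) and without the filter on low counts (adjusted p = 0.0583). Of the 12499 transcripts, 6604 were lower and 54 higher with all libraries. The number lower was 3943 without DMDA-PatA replicate 1 and at most 8334 without any 1 library, and the number higher was 19 without DMDA-PatA replicate 2, 32 without harringtonine replicate 2 and 172 without harringtonine replicate 1.

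DMDA-PatA left fewer footprints than puromycin on 4 members, against 67.4% of all: Aldoa (-3.20 ± 0.50, adjusted p = 1.59e-09), Hk2 (-2.87 ± 0.49, adjusted p = 3.47e-08), Gpi1 (-1.5 ± 0.46, adjusted p = 0.00219) and Pkm (-1.46 ± 0.46, adjusted p = 0.00311). Without replicate 1 of DMDA-PatA, those for Gpi1 (-1.08) and Pkm (-1.07) were lost, and that for Pkm also without puromycin replicate 2 (-1.21, adjusted p = 0.0881). Ldha differed by 0.03 ± 0.47, and this was not called. Harringtonine left fewer than puromycin on 2 members, against 9.94% of all: Ldha (-1.52 ± 0.50, adjusted p = 0.0275) and Hk2 (-1.28 ± 0.46, adjusted p = 0.0479). Neither was called without harringtonine replicate 2, or without either puromycin library. The number of all transcripts called lower, 1243, was 3741 without harringtonine replicate 1, 652 without its replicate 2, 403 without puromycin replicate 1 and 274 without its replicate 2. All counts between drugs rest on the spike-in. Under TMM, DMDA-PatA had 1 member lower and 3 higher than harringtonine, and 2 lower and 3 higher than puromycin, while harringtonine had 3 lower and 1 higher than puromycin.

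On the 5' UTR the members went different ways, though differences between members were not tested. Pkm had 486 and 419 normalized 5' UTR footprints in the control libraries, 1635 and 2218 under DMDA-PatA, 2687 and 1690 under harringtonine, and 866 and 884 under puromycin. All 6 drug libraries lay above both controls, while its CDS footprints fell. Hk2 had 950 and 728 in the controls, 494 and 647 under DMDA-PatA, 1101 and 788 under harringtonine, and 1069 and 756 under puromycin. Its 5' UTR footprints overlapped the control with harringtonine and puromycin.

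Gpi1 had 11.8 and 6.35 in the controls, 30.3 and 58.4 under DMDA-PatA, 49.7 and 44.1 under harringtonine, and 12.4 and 8.70 under puromycin. Aldoa had 94.3 and 52.6 in the controls, 82.7 and 141 under DMDA-PatA, 461 and 271 under harringtonine, and 72.4 and 33.6 under puromycin. Both rose above the controls with harringtonine, and of the 2 only Gpi1 did so in both DMDA-PatA libraries.

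Pgk1, without footprints on its CDS, had 9.43 and 3.63 on the 5' UTR in the controls and 26.4 and 30.1 with harringtonine. With DMDA-PatA it had 1.26 and 7.31, and with puromycin 0 and 3.73. Pgam1 had 34.2 and 35.4 in the controls, 18.3 and 28.4 under DMDA-PatA, 36.5 and 32.2 under harringtonine, and 51.7 and 12.4 under puromycin. Thus both mRNAs were seen in the footprint libraries through their 5' UTRs. Of the windows on the 5' UTR of Pgk1, 64.8% were unique. For Pgam1, 47 of 96 windows of the GENCODE 5' UTR were unique, a region that differs in length from the 177 nt on which the reads were counted.

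Ldha had 9.43 and 7.25 in the controls, 1.89 and 0.812 under DMDA-PatA, 10.1 and 7.70 under harringtonine, and 4.14 and 1.24 under puromycin. These are at most 11 reads per library, and reads on the 87 nt before the GENCODE start codon counted as CDS. Pfkl and Eno1 had between 0 and 3 footprint reads per library on the 5' UTR. Tpi1 had none on its 24 nt.

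**Figure D4:**
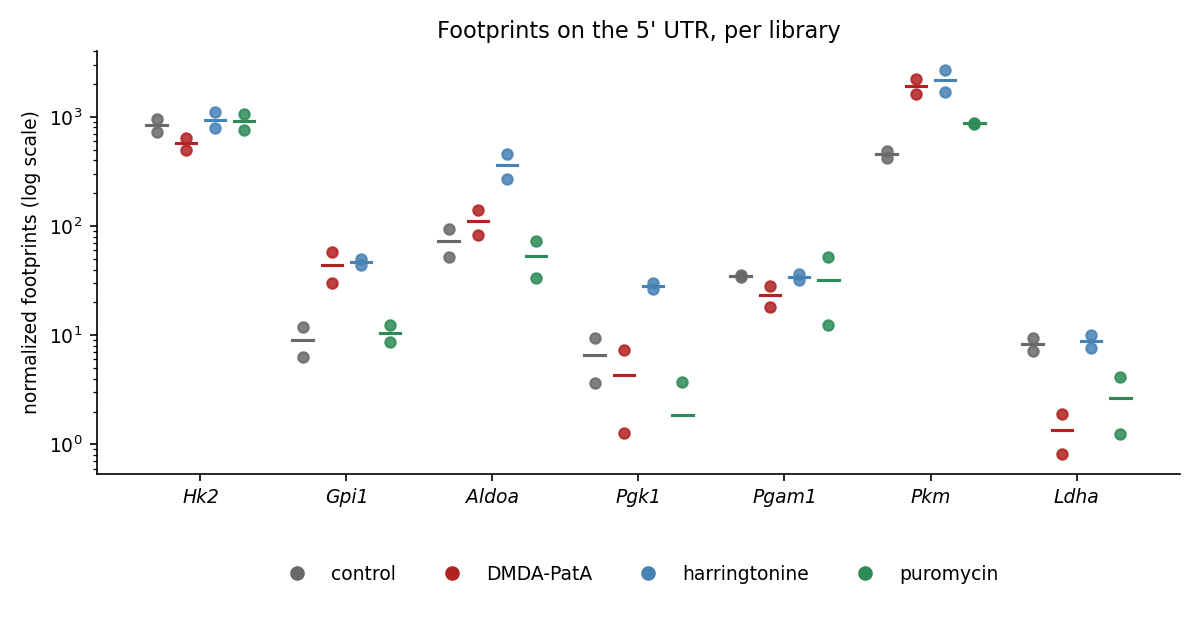
Normalized footprints on the 5' UTR (log scale) of the 7 members tested, for control, DMDA-PatA, harringtonine and puromycin. Each point is 1 library and each bar the mean of 2; the Pkm libraries of all 3 drugs lie above its controls, and the puromycin library of Pgk1 with 0 footprints is not drawn.

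With DMDA-PatA, 5' UTR footprints rose for 2 of 7 members tested, where 14.8% of 6535 transcripts tested rose, and fell for 1, where 28.7% fell. Gpi1 rose by 2.30 ± 0.60 (log2, SE, adjusted p = 6.63e-04) and Pkm by 2.09 ± 0.45 (adjusted p = 2.71e-05). Ldha changed by -2.46 ± 0.95 (adjusted p = 0.0257), a call that was lost without any 1 of the 4 libraries compared, at changes from -3.16 to -2.06. The call for Gpi1 was lost without control replicate 2 (1.89, adjusted p = 0.0600). The changes of Hk2 (-0.56), Aldoa (0.61), Pgk1 (-0.62) and Pgam1 (-0.58) were not called.

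With harringtonine, 5' UTR footprints rose for 4 of 7 members, against 35.2% of all, and fell for 0 of 7 (0 also at an unadjusted p under 0.05 and by DESeq2), against 5.11%. These were Gpi1 (2.38 ± 0.60, adjusted p = 5.07e-04), Aldoa (2.32 ± 0.47, adjusted p = 1.50e-05), Pkm (2.27 ± 0.45, adjusted p = 7.53e-06) and Pgk1 (2.15 ± 0.68, adjusted p = 0.00624). Pgk1 passed the filter only through the 2 harringtonine libraries, with 26 and 43 reads, against 8 and 4 in the controls. Its call, and its place in the count of 4, therefore depend on the group that admitted it. Without control replicate 2, the calls for Gpi1 (1.98) and Pgk1 (1.57) were lost, and DESeq2 did not call Pgk1 (2.14, adjusted p = 0.0535). Hk2 (0.17), Pgam1 (-0.02) and Ldha (0.09) were not called. With puromycin none of the 7 was called by edgeR in either direction at the adjusted p, where 0.551% of all rose and 0.352% fell. At an unadjusted p under 0.05 edgeR held Pkm alone, at 0.95 ± 0.43 (adjusted p = 0.347 by edgeR's quasi-likelihood test), and DESeq2 called none. With TMM in place of the spike-in, 3 members rose and 1 fell with DMDA-PatA, 3 rose and 1 fell with harringtonine, and 1 rose with puromycin.

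The share of a transcript's reads that lie on the 5' UTR needs no size factor. For Pkm it was 9.02% and 7.51% of 5' UTR and CDS footprints in the controls, 91.1% and 88.2% under DMDA-PatA, 88.9% and 87.5% under harringtonine, and 62.2% and 54.9% under puromycin. For Hk2 it was 11.8% and 10.9%, then 82.3% and 84.7%, 71.1% and 77.7%, and 53.7% and 51.4%, in the same order. So most of the footprints counted on both mRNAs with any of the drugs lay upstream of the start codon. Reads were counted on unlike shares of the 2 regions, since 95.1% of windows on the 5' UTR of Pkm were unique against 20.5% on its CDS, and 100% against 81.9% for Hk2. Hence the share for Pkm is of counted reads and not of all its ribosomes, while each library was counted on the same windows. In the transcriptome the share was 30.1% and 39.6% for Pkm and 13.3% and 12.9% for Hk2.

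For Aldoa the share was 0.908% and 0.564% in the controls, 30.3% and 28.3% under DMDA-PatA, 13.0% and 13.2% under harringtonine, and 2.58% and 1.44% under puromycin. For Gpi1 it was 0.379% and 0.232%, 19.0% and 18.3%, 9.94% and 11.8%, and 2.13% and 1.61%. For Ldha it was 0.370% and 0.296%, 2.52% and 0.735%, 21.3% and 23.4%, and 3.92% and 1.56%. In these Ldha shares the 87 nt before the GENCODE start codon counted as CDS. Ldha had its highest share with harringtonine and Hk2, Gpi1 and Aldoa with DMDA-PatA, while the Pkm libraries of these 2 drugs overlapped. Only the harringtonine libraries carried Ldha past the filter on 5' UTR reads.

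**Figure D5:**
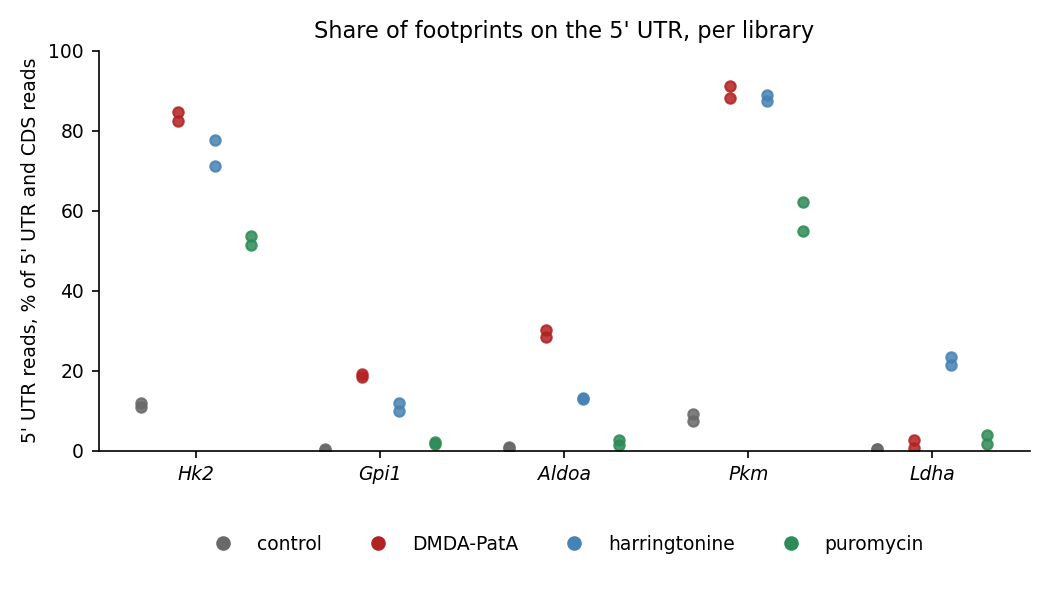
Reads on the 5' UTR as a percentage of 5' UTR and CDS reads (vertical axis) for the 5 members tested, with 1 point per library. Pkm and Hk2 lie at 11.8% or less in the controls and at 51.4% or more in each drug library. Ldha is highest with harringtonine, the only group through which it passed the filter.

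The ratio of 5' UTR to CDS reads rose for 5 of 5 members tested with each drug, where it rose for 93.6% of 6393 transcripts tested under DMDA-PatA, 95.6% under harringtonine and 78.4% under puromycin. A rise is thus what most transcripts showed. Pkm rose by 6.60 ± 0.34 under DMDA-PatA (log2, SE, adjusted p = 3.58e-12), 6.38 ± 0.33 under harringtonine (adjusted p = 5.08e-12) and 3.97 ± 0.32 under puromycin (adjusted p = 1.17e-08). The medians of coding transcripts were 4.36, 4.01 and 2.56. Ldha rose by 2.36 ± 0.98 with DMDA-PatA (adjusted p = 0.0287) and by 6.43 ± 0.64 with harringtonine (adjusted p = 1.56e-08). With DMDA-PatA 13.1% of coding transcripts lay below it, and with harringtonine 91.4% did. Ldha passed the filter on 5' UTR reads only through the 2 harringtonine libraries, with 10 and 11 reads, against 8 and 8 in the controls. The counts of 5 of 5 include it, and its harringtonine result depends on the group that admitted it. The DMDA-PatA call for Ldha rests on 3 and 1 reads on the 5' UTR and was lost without control replicate 2 (2.20) or DMDA-PatA replicate 1 (1.35). With puromycin the calls for Aldoa (1.01, adjusted p = 0.0851) and Ldha (2.36, adjusted p = 0.262) were lost without puromycin replicate 1.

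The other isozymes and the remaining steps of glycolysis form a list of 21 genes, of which 15 were listed and 13 tested. DMDA-PatA lowered 13 of 13, harringtonine 12 and puromycin 12, with medians of -4.07, -2.97 and -2.84. These counts are near the shares over all transcripts, 99.3%, 92.9% and 90.1%. The exception was Eno2, the neuronal enolase, at -0.69 with harringtonine and -0.32 with puromycin. Pfkp, the platelet phosphofructokinase, had 2154 ± 279 control footprints per kb, about the density of Pfkl. Hk1 had 311 ± 53.8 per kb, against 2372 ± 292 for Hk2.

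Pfkp fell from 5529 and 4602 normalized CDS footprints to 166 and 230 under DMDA-PatA, 294 and 185 under harringtonine, and 230 and 303 under puromycin. Relative to all coding sequences, Pfkp lay at -1.54 ± 0.19 with harringtonine (adjusted p = 6.86e-07), where Pfkl was at 0.16. Hk1 fell from 989 and 773 to 46.7 and 59.3, 36.5 and 21.7, and 31.0 and 34.8. Hk1 lay at 0.19 with DMDA-PatA on the relative scale, and Hk2 at -1.61, while with harringtonine Hk1 lay at -2.07 and Hk2 at -1.46.

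Ldhb, the heart form of lactate dehydrogenase, fell from 882 and 801 to 38.5 and 67.4 under DMDA-PatA, 186 and 95.2 under harringtonine, and 203 and 265 under puromycin. On the relative scale it lay at 0.24 with harringtonine (not called) and 0.62 ± 0.19 with puromycin (adjusted p = 0.00953), where Ldha lay at -3.45 and -2.37. Of the windows on Ldhb, 38.2% were unique, near the 33.0% of Ldha. Aldoc, the brain aldolase, fell from 958 and 689 to 13.9 and 26.8, 101 and 49.7, and 120 and 111, in the same order of drugs. On the relative scale Aldoc lay at -1.14 ± 0.24 with DMDA-PatA (adjusted p = 7.25e-04) and at -0.62 ± 0.20 with harringtonine (adjusted p = 0.0114), where Aldoa lay at -0.97 and 0.84. The differences between isozymes were not tested.

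Other isozymes had lower numbers. Pfkm had a mean of 689 control footprints, Eno3 533, Bpgm 189, Pgam2 97.0, Ldhc 92.8, Eno2 28.6, Pklr 26.9 and Eno1b 22.0. Of the windows of Eno1, 81.7% recur in Eno1b, and reads that match both were left out of both counts. Only 32 of the 1273 windows of Eno1b were unique.

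The counts for neighbouring pathways were also near the shares of all transcripts lowered, 99.3% under DMDA-PatA, 92.9% under harringtonine and 90.1% under puromycin. DMDA-PatA lowered 20 of 20 genes of glucose and lactate transport and of the switches of glycolysis, 7 of 7 of the pentose phosphate pathway, 17 of 17 of the tricarboxylic acid cycle and 4 of 4 tested genes of gluconeogenesis. Harringtonine lowered the same numbers, and puromycin all but 1, the transport and switch gene Pfkfb4 (-1.01, adjusted p = 0.0648 by edgeR). The glucose transporter Slc2a3 fell from 29208 and 25585 footprints to 654 and 1080 under DMDA-PatA, 1195 and 749 under harringtonine, and 1481 and 1758 under puromycin. Citrate synthase, Cs, fell from 4374 and 4154 to 163 and 199 with DMDA-PatA but kept 1854 and 1349.5 with harringtonine and 1840.5 and 2008 with puromycin.

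On the scale relative to all coding sequences, harringtonine lowered 11 of 20 transport and switch genes and 11 of 17 of the tricarboxylic acid cycle, with 3 and 4 raised, against 30% and 26.6% of all. It lowered 1 of 7 pentose phosphate genes and raised 1. DMDA-PatA lowered 8 and raised 1 of the transport and switch genes, and lowered 2 and raised 4 of the tricarboxylic acid cycle, against 23.6% and 18.8% of all. Puromycin lowered 9 and raised 2 of the former and lowered 7 and raised 2 of the latter, against 24.9% and 24.3%. Each of these 2 drugs lowered 2 pentose phosphate genes.

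Footprints per transcriptome read were above average for 14 of 17 tricarboxylic acid cycle genes, 6 of 7 pentose phosphate genes and 9 of 20 transport and switch genes, and below it for 1 tricarboxylic acid cycle gene and 3 transport and switch genes, against 29.8% of all transcripts above and 40.9% below. These lists had medians of 0.79, 0.86 and 0.12 on the log2 scale, beside 1.60 for the glycolytic enzymes. Of the other isozymes and steps of glycolysis, 9 of 14 tested were above average and 1 below, with a median of 0.88. For gluconeogenesis 5 of 5 were above, with a median of 0.65.

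The median profile of the 8 members over the 6 drug libraries was compared with 2307 other coding transcripts with at least 1000 mean control footprints. The nearest were Atic, a purine synthesis enzyme (Euclidean distance of 0.277 on the log2 scale), Nr0b1 (0.363), Aurka (0.400), Utp6 (0.402) and Hsd17b10 (0.408), where the median distance was 2.19. The members themselves lay from 1.01 (Tpi1) to 4.99 (Ldha) away from their own median profile. Hk2, Aldoa and Ldha lay beyond the median distance of 2.19, and the other members within it. The nearest transcripts were picked for small distances, so the members cannot be ranked against them.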

How the data were processed

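The authors aligned SOLiD reads to mm10 (GRCm38) and left out reads with several matches on the genome. They counted reads per ORF, 5' UTR and 3' UTR and deposited a normalized signal: counts divided by a size factor, from spike-in reads for footprints and between replicates for the transcriptome. All values were whole multiples of 1 read within 0.01 (100% of values), so reads were recovered and tested in place of the normalized values that the design had assumed to be counts. Picard 1.38 is named in the submitters' processing notes.

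edgeR 4.0.16 (quasi-likelihood, Benjamini-Hochberg adjustment over all transcripts tested, adjusted p of 0.05) was run in R 4.3.3 with limma 3.58.1. A transcript was tested where 2 or more libraries held 10 or more reads. The 4 conditions shared 1 fit with the authors' size factors, and a further fit used TMM. The ratio of 5' UTR to CDS reads was fitted with the library as a block. Footprints per transcriptome read used the sum of coding reads as library size. DESeq2 1.42.0, limma, other scalings, no filter and leaving out each library were alternatives. The test was tried on simulated counts. Genes, coordinates and sequences came from GENCODE M21, and windows of 30 nt were searched in 21 chromosomes of GRCm38. Python 3.11.15, numpy 2.4.6, pandas 2.3.3 and matplotlib 3.10.9 were used.

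The named genes were all members, each further isozyme that passed the filter (1 is not reported here), up to 4 genes of each other list and the 5 nearest profiles. The members and lists were chosen with earlier results of these data known. With 2 libraries per condition, p-values rest on the spread between these libraries, and read numbers and the limit for a count of 0 cover counting error only.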

Additional observations from a re-analysis of the deposited data

Results flagged for a closer look

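Reads on the 3' UTR enter no comparison above. The members named here were picked because both harringtonine libraries held more normalized 3' UTR footprints than both control libraries. The share of all transcripts that meet this rule was not counted, so it cannot be read as a trait of the members. On Hk2 there were 58.8 and 30.1 (mean 44.5) with harringtonine and 15.3 and 5.44 in the controls. On Ldha there were 23.3 and 14.7 (mean 19.0) against 11.8 and 3.63. On Pkm there were 9.13 and 8.40 (mean 8.77) against 5.89 and 0. The Pkm values are 9 and 12 reads with harringtonine and 5 and 0 in the controls. These differences were not tested.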

How the results depend on the processing

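All 8 members tested on the CDS stayed lowered by each drug under the exchanged size factors, DESeq2, limma, no filter, the replicate block and without any 1 library. Under TMM, which removes the shared fall by construction, 3 were lowered and 1 raised with DMDA-PatA, 3 and 1 with harringtonine, and 4 and 1 with puromycin. The signs that turned were those of Gpi1 (0.28), Pfkl (0.047), Tpi1 (0.50) and Eno1 (0.69) with DMDA-PatA, Pfkl (0.16) and Aldoa (0.84) with harringtonine, and Gpi1 (0.053) and Aldoa (0.50) with puromycin. Over all transcripts TMM gave 2945 lowered and 2354 raised with DMDA-PatA, 3749 and 3324 with harringtonine, and 3112 and 3032 with puromycin. Between drugs, TMM gave 1 member lower and 3 higher in DMDA-PatA against harringtonine (Gpi1 turned to 0.29), 2 lower and 3 higher against puromycin (Gpi1 turned to 0.22 and Pkm to 0.27), and 1 higher in harringtonine against puromycin. With the size factors swapped between the harringtonine and the DMDA-PatA libraries, harringtonine against puromycin had 4 members lower and 1 higher, and without a filter 1 lower. On the relative scale, 0 members were raised with DMDA-PatA by DESeq2 (Tpi1 at an adjusted p of 0.0521) or by edgeR without a filter (0.0642), and Gpi1 with harringtonine turned to 0.060 with DESeq2 size factors.

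On the 5' UTR, DESeq2 called 0 members lower with DMDA-PatA. TMM called 1 lower with harringtonine, namely Hk2 (-0.64), where Ldha turned to -0.69, and 1 higher with puromycin. With exchanged size factors, harringtonine left Hk2 at -0.070 and Ldha at -0.13. The cause of these changes was not tested.

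Without 1 library at a time, the relative scale gave 2 members lowered and 0 raised with DMDA-PatA, and 2 to 3 lowered and 0 to 1 raised with puromycin. There Pfkl with DMDA-PatA ranged from -0.060 to 0.15, and with harringtonine Gpi1 ranged from -0.13 to 0.21 and Tpi1 from -0.30 to 0.046. DMDA-PatA had 2 to 5 members lower than harringtonine and 2 to 5 lower than puromycin, and harringtonine 0 to 3 lower than puromycin. On the 5' UTR, 0 were lowered and 1 to 2 raised with DMDA-PatA, and 2 to 4 raised with harringtonine. The share of 5' UTR reads rose for 3 to 5 members with puromycin. Values on the 5' UTR that changed sign ranged from -2.21 to 0.21 for Pgk1 with DMDA-PatA, from -0.090 to 0.39 for Hk2, -0.11 to 0.070 for Pgam1 and -0.10 to 0.28 for Ldha with harringtonine, and from -0.15 to 0.35 for Hk2, -0.20 to 0.69 for Gpi1 and -1.48 to 0.57 for Pgam1 with puromycin. The fit without 1 library assumes that a lone library varies like the other groups.

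Footprint libraries with the same replicate number did not deviate together (correlations from -0.021 to 0.052 over 12093 transcripts), so the main tests did not pair them by number. The transcriptome libraries were not part of these correlations. The footprints per transcriptome read given per replicate above do set libraries of the same number against each other. The replicate block called 0 members lower in harringtonine against puromycin, where the fit without it called 2, and 3 in place of 4 lower in DMDA-PatA against harringtonine. Depth limits Eno1, with 4 to 10 reads per drug library on the CDS, and the 5' UTRs of Ldha and Pgk1.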
